A study of Mus musculus with 12 samples.

Results

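The 10 genes described here encode AP-1 subunits and other immediate early transcription factors. They were chosen by name, with earlier results of these data known. They hold the Fos family (*Fos*, *Fosb*, *Fosl1* and *Fosl2*), the Jun family (*Jun*, *Junb* and *Jund*), *Egr1*, *Atf3* and *Nr4a1*. All 10 were listed among the 23284 genes measured in sorted osteoblasts and among the 24346 genes measured in MC3T3-E1 cells. Osteoblasts came from female Col2.3-ECFP mice, which were 12 weeks old at the start and in which a fragment of the type I collagen promoter drives a cyan reporter in mature osteoblasts. The mice received vehicle (PBS) or human PTH (1-34) subcutaneously at 40 µg/kg a day on 5 days of each week, and after 3 weeks 7AAD-Lin-CD45-ECFP+ cells were sorted (3 libraries per group). Cells were harvested 24 h after the last injection. MC3T3-E1 cells, a clonal osteoblastic line of mouse calvaria, carried either the empty retroviral vector (mock) or the same vector with *Slpi*, the gene of secretory leukocyte protease inhibitor, and stable cells were selected with puromycin (3 libraries per group). The comparisons ask in which state these genes were found a day after the last of repeated PTH injections, and in cells that overexpress *Slpi*. How many mice or cultures a library holds is not given in the sources used here, so the *p* values measure the spread between these libraries.

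AP-1 is a dimer of basic leucine zipper proteins. Jun proteins pair with each other or with Fos proteins and bind a short palindromic site, while Fos proteins do not form stable dimers with each other. Immediate early genes are transcribed within minutes of a stimulus, without new protein synthesis, through serum response elements and cAMP response elements (CRE) in their promoters, and their mRNAs are short-lived. In osteoblasts, PTH raises cAMP through its receptor, and *Fos*, *Fosb*, *Fosl2*, *Junb* and *Nr4a1* are known as early targets of that signal. ΔFosB and Fra-1, products of *Fosb* and *Fosl1*, increase bone formation when overexpressed in mice.

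The bases before the start of transcription are shown for *Fos* and *Fosb*, the members of the Fos family with the highest levels in sorted osteoblasts, and for *Junb* and *Nr4a1*, which passed the test in the PTH comparison. Each is the stretch of 150 bases upstream of a start that RefSeq gives on GRCm38.p6, 5′ to 3′ on the strand of the gene, with 1 start used per gene. Capitals mark TGACG, the core of the CRE, and GCGNGGGCG, the site of EGR proteins, on either strand.
*Fos*, chr12:85473740-85473889, plus strand: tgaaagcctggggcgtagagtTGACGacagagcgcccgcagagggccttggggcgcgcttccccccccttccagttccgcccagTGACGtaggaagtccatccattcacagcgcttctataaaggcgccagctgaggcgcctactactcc
*Fosb*, chr7:19310046-19310195, minus strand: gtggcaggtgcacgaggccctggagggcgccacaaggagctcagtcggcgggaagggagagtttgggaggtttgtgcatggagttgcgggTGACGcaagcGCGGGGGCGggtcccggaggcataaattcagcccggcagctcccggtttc
*Junb*, chr8:84978749-84978898, minus strand: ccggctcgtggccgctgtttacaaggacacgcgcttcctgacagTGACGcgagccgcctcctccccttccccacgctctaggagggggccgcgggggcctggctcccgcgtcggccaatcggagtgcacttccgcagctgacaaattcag
*Nr4a1*, chr15:101266696-101266845, plus strand: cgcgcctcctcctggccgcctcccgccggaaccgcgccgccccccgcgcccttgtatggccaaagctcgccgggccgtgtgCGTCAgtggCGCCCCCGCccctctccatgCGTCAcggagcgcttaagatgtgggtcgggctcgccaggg
Windows from 250 bases before to 50 after the start were searched for 8 of the 10 genes, all but *Fosl1* and *Egr1*. The windows of *Nr4a1* (chr15:101266596-101266895), *Atf3* (chr1:191183284-191183583) and *Fosl2* (chr5:32136222-32136521) lie inside the gene positions given below. The window of *Jund* (chr8:70697489-70697788) ends before its gene position. Other starts of these genes were not searched. TGACG occurred on either strand in 5 of the 8 windows (*Fos*, *Fosb*, *Junb*, *Atf3* and *Nr4a1*) and in 20.8% of the 32851 mouse windows of that length. The EGR site occurred in 3 of the 8 (*Fosb*, *Fosl2* and *Nr4a1*) and in 5.55% of all windows. The full CRE TGACGTCA (1.79% of windows), the AP-1 site TGACTCA or TGAGTCA (5.2%), the serum response element core (1.63%) and the NR4A site AAAGGTCA (1.51%) had no match in the 8 windows. The core lies within the full CRE, so these searches overlap. A match describes letters only. Sites that differ from these letters in any base were not counted, and sites farther upstream were not in the window.

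Values are FPKM, a fragment number scaled by transcript length and by library size, so that genes of 1 library can be compared with each other. Summed over genes, sorted osteoblast libraries held 400838.8 to 462460.2 FPKM and MC3T3-E1 libraries 541932.2 to 599746.4 FPKM. The number of genes at 1 FPKM or more was 10795 to 11746. Absolute depth is unknown. From the steps in low FPKM, depth relative to replicate 1 of the controls was 0.787 to 1.402 for sorted osteoblasts and 0.87 to 1 for MC3T3-E1 cells. Across genes, Pearson's *r* of log2(FPKM + 1) between replicates was 0.952 to 0.962 with vehicle, 0.908 to 0.946 with PTH and 0.984 to 0.991 within the MC3T3-E1 groups. The osteoblast label fitted its markers. *Bglap* (osteocalcin) was at least 6963 FPKM, *Sp7* (osterix) at least 59.2 and *Dmp1* at least 744.9 in all sorted libraries, although *Col1a1* was listed at 0 in 4 of them. In MC3T3-E1 cells *Sp7* was between 29.3 and 88.3 FPKM, but *Bglap*, a late marker, did not exceed 2.85 and *Phex* did not exceed 0.363.

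**Levels in sorted osteoblasts.** Immediate early genes were among the most abundant transcripts of sorted osteoblasts. These cells had been released from bone by 3 incubations of 25 min in collagenase at 37 °C and by EDTA, and then sorted. The part of this handling in the levels, and in the spread between libraries, was not tested. In every vehicle and PTH library 8 of the 10 members ranked among the first 1000 genes by FPKM, all except *Fosl2*, which did so in part of the libraries, and *Fosl1*. With vehicle, *Fos* was highest at 673.6, 561.0 and 653.4 FPKM in replicates 1, 2 and 3, which placed it between rank 91 and rank 110 of 23284 genes. *Egr1*, *Fosb* and *Atf3* followed at means of 393.9, 389.4 and 382.7 FPKM, and their libraries overlapped, so that they could not be ordered. *Junb* (218.9), *Jun* (160.8), *Jund* (133.1), *Nr4a1* (109.6) and *Fosl2* (47.3 FPKM) came next, and each of these lay apart from its neighbours in all vehicle libraries. *Fosl1*, which encodes Fra-1, was lowest at 5.16 FPKM. Between vehicle libraries the coefficient of variation was 5.69% for *Jund* to 19.8% for *Fosl1*.

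The order with PTH was *Fos*, *Fosb*, *Egr1*, *Atf3*, *Junb*, *Jun*, *Jund*, *Nr4a1*, *Fosl2* and *Fosl1*. Within each PTH library every gene was above the next, except that *Nr4a1* was above *Jund* in 1 of 3 libraries. The coefficient of variation was larger than with vehicle for all 10 members, between 15.6% for *Fosl2* and 45.8% for *Fosl1*.

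**Figure D1:**
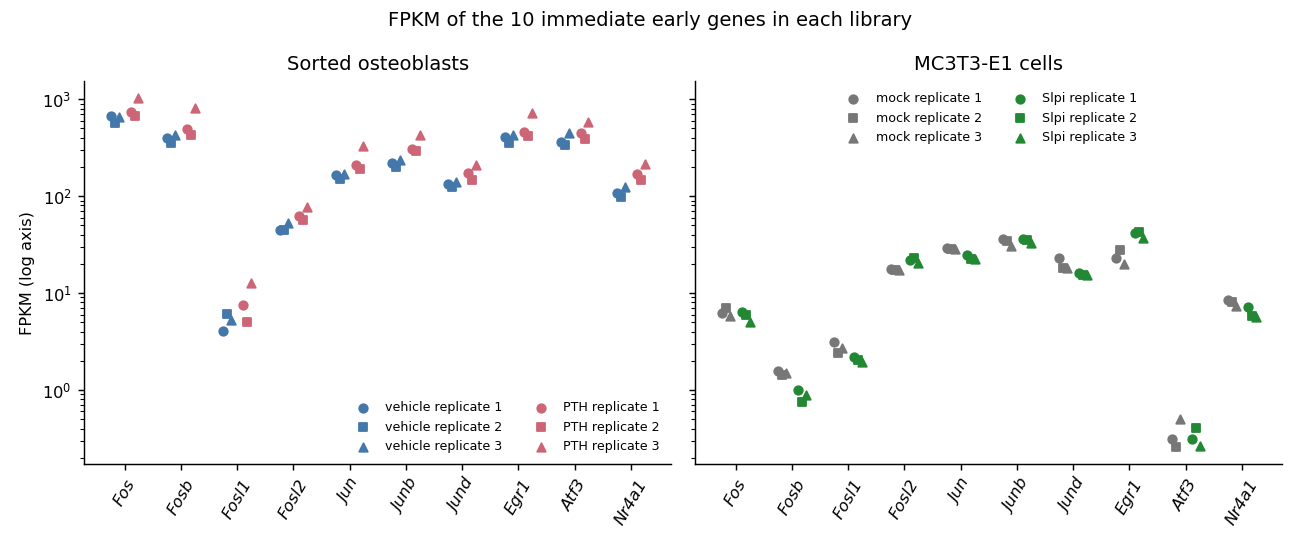
FPKM of the 10 genes in each library, on a log axis, in sorted osteoblasts (vehicle and PTH) and in MC3T3-E1 cells (mock and *Slpi*), where each point is 1 library. *Fos* runs from 561.0 to 1016 FPKM among sorted osteoblasts and from 5.01 to 6.97 among MC3T3-E1 cells, and PTH replicate 3 is the highest PTH library for every gene.

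**PTH against vehicle.** A day after the last injection, the mean FPKM of all 10 members was higher with PTH than with vehicle, by ratios of means between 1.24 for *Atf3* and 1.62 for *Fosl1*. *Nr4a1* and *Junb* rose at an adjusted *p* under 0.05 (limma on log2(FPKM + 1), Benjamini-Hochberg over 13004 genes), and the other 8 members did not pass. These 2 of 10 compare with 6.38% of all tested genes called higher. At an unadjusted limma *p* under 0.05, 5 of 10 members were higher, against 16% of all genes. For 6 of 10 every PTH library lay above every vehicle library, against 19.5% of all genes. No member reached a 2-fold change at an unadjusted *p* under 0.05, which 1.24% of genes did upwards and 4.35% downwards. The median log2 fold change was 0.48 over the members and 0.007 over all genes tested. Since the members were chosen with earlier results of these data known, these shares describe the list and do not test it. Log2 fold changes are differences of mean log2(FPKM + 1), given ± their standard error.

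*Fos* encodes the prototype Fos protein and lies at chr12:85473890-85477273 on the plus strand of mm10. Its FPKM was 673.6, 561.0 and 653.4 with vehicle and 737.6, 670.3 and 1016 with PTH in replicates 1, 2 and 3. PTH replicate 2 lay just below vehicle replicate 1, so the groups overlapped, and the log2 fold change of 0.34 ± 0.168 (adjusted *p* = 0.202 by limma) was not called. *Fosb* (chr7:19302696-19310051, minus strand), which also gives rise to the stable splice form ΔFosB, stood at 395.3, 350.2 and 422.8 FPKM with vehicle. With PTH it stood at 493.3, 424.9 and 805.0 FPKM. The lowest PTH library was barely above the highest vehicle library, and the log2 fold change was 0.51 ± 0.230 (adjusted *p* = 0.171 by limma).

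*Fosl2* encodes Fra-2, which acts in osteoblast differentiation, and lies at chr5:32135801-32157842 on the plus strand. It had 44.5, 44.8 and 52.6 FPKM with vehicle and 62.4, 57.3 and 76.9 FPKM with PTH. All PTH libraries were above all vehicle libraries, but the log2 fold change of 0.46 ± 0.136 had a limma adjusted *p* of 0.0649. *Fosl1* (chr19:5447547-5455946, plus strand) had 4.08, 6.10 and 5.31 FPKM with vehicle. With PTH it had 7.47, 5.08 and 12.6 FPKM, and PTH replicate 2 lay within the vehicle range (log2 fold change 0.54 ± 0.293, adjusted *p* = 0.241 by limma).

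*Junb* encodes a Jun protein with weaker transactivation than c-Jun at many AP-1 sites, and lies at chr8:84974484-84978718 on the minus strand. It rose from 221.4, 201.0 and 234.3 FPKM with vehicle to 304.4, 289.4 and 426.7 FPKM with PTH. The groups did not overlap, and the log2 fold change was 0.61 ± 0.160 (adjusted *p* = 0.0454 by limma). *Jun* (chr4:95049034-95052222, minus strand), which encodes c-Jun, had 163.5, 150.2 and 168.7 FPKM with vehicle and 208.7, 188.0 and 328.0 FPKM with PTH. *Jund* (chr8:70698949-70700616, plus strand), the Jun gene that is least dependent on a stimulus, had 134.0, 125.1 and 140.2 FPKM with vehicle and 171.0, 147.7 and 211.2 FPKM with PTH. For both genes the PTH libraries lay above the vehicle libraries, while the log2 fold changes of 0.54 for *Jun* and 0.39 for *Jund* had limma adjusted *p* values of 0.113 and 0.103.

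*Nr4a1* encodes the orphan nuclear receptor Nur77 and lies at chr15:101254269-101274795 on the plus strand. It rose from 106.7, 98.1 and 124.0 FPKM with vehicle to 168.0, 147.0 and 213.6 FPKM with PTH. It had the largest log2 fold change of the 10 members, 0.67 ± 0.159 (adjusted *p* = 0.0368 by limma), with all PTH libraries above all vehicle libraries. *Egr1* (chr18:34859823-34864984, plus strand), a zinc finger factor induced by ERK signaling, had 409.6, 349.7 and 422.5 FPKM with vehicle and 453.7, 416.5 and 715.9 FPKM with PTH. *Atf3* (chr1:191170296-191218039, minus strand), a stress-induced basic leucine zipper factor that can pair with Jun proteins, had 359.7, 339.0 and 449.4 FPKM with vehicle and 449.8, 386.7 and 584.1 FPKM with PTH. The groups of both genes overlapped, and their log2 fold changes of 0.39 and 0.30 had limma adjusted *p* values of 0.236 and 0.282. An exact permutation test of a single gene, two-sided, can give no *p* below 0.1 with 3 libraries per group, and the 6 members with separate groups reached it.

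PTH replicate 3 had the highest FPKM of the PTH libraries for all 10 members and PTH replicate 2 the lowest for all 10. Relative to the vehicle mean, the members had a median ratio of 1.29 in PTH replicate 1, 1.1 in replicate 2 and 1.88 in replicate 3, whereas the median over all tested genes was 0.988, 1 and 0.991. In replicate 2 the ratio ranged from 0.985 for *Fosl1* to 1.34 for *Nr4a1*, and in replicate 3 from 1.53 for *Atf3* to 2.44 for *Fosl1*. Vehicle libraries differed less, with median ratios of 1.01, 0.909 and 1.07. Without PTH replicate 3 all 10 log2 fold changes stayed above 0, but their median was 0.25. *Junb* and *Nr4a1* were then still called, with log2 fold changes of 0.44 and 0.52 (adjusted *p* = 0.0398 and 0.047 by limma). With quantile normalization, which gives each library the same distribution, the median was 0.24, no member passed and 2 of 10 had an unadjusted limma *p* under 0.05. Without vehicle replicate 1 or without vehicle replicate 2, limma called 1 and 0 of all genes at an adjusted *p* under 0.05, against 1981 with all libraries, so no member passed there, while 3 of 10 had an unadjusted *p* under 0.05 in either fit.

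**Figure D2:**
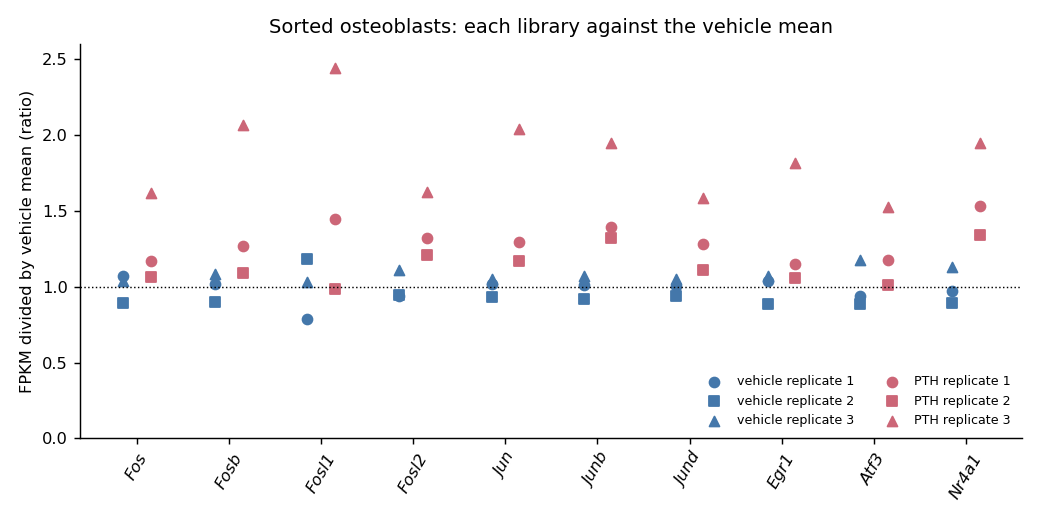
FPKM of each gene and library of sorted osteoblasts divided by the vehicle mean of that gene (ratio, dotted line at 1). PTH replicate 3 lies between 1.53 and 2.44 for the 10 genes, and PTH replicate 2 between 0.985 and 1.34.

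Osteoblast markers also had higher values with PTH in part. *Alpl*, alkaline phosphatase, ran from 184.9 to 216.1 FPKM with vehicle and from 260.7 to 377.8 with PTH, *Sp7* from 59.2 to 70.9 and from 76.3 to 115.9, and *Dmp1* from 744.9 to 873.6 and from 922.7 to 1169, without overlap. *Ibsp* was also apart (1153 to 1429 and 1475 to 1814). *Bglap* (6963 to 8826 and 7017 to 14280), *Runx2* (29.7 to 36.74 and 36.71 to 53.2) and *Phex* (102.3 to 120.8 and 120.2 to 134.2) overlapped. Of all genes, 19.5% were higher without overlap. Of the 12 markers of the list 2 were called higher (*Alpl* and *Spp1*, osteopontin) and none lower at a limma adjusted *p* under 0.05, with a median log2 fold change of 0.38. Of all genes, 6.38% were called higher and 8.85% lower. Their sum, 17890 to 67570 FPKM with vehicle and 16430 to 27750 with PTH, depends on whether *Col1a1* was listed at 0. Libraries of PTH-treated mice also differed in markers of other cells. The summed FPKM of 11 neutrophil markers was 377.7 to 471.0 with vehicle and 703.2 to 2363 with PTH (7 of 11 tested called higher, against 6.38% of all genes). That of 11 T and NK cell markers was 92.1 to 140.9 and 0.608 to 21.0 (4 of 5 tested called lower, against 8.85% of all genes). Megakaryocyte and platelet markers summed to 198.8, 163.3 and 6.94 FPKM in PTH replicates 1, 2 and 3, against 4.59 to 8.62 with vehicle, and muscle markers to 10.4, 2384 and 1.62 FPKM against 10.5 to 17.7. PTH replicate 3, in which the members were highest, had the lowest sums of all 4 of these lists among the PTH libraries. It was also lowest for monocyte, macrophage and osteoclast markers (377.8, 375.7 and 327.8 FPKM in PTH replicates 1, 2 and 3). Mast cell and basophil markers (16.5, 15.7 and 5.67) and endothelial markers (8.17, 6.70 and 1.07) had their lowest PTH sum there as well. PTH replicate 3 was not the lowest for B and plasma cell markers (14.3, 9.36 and 10.8 FPKM in PTH replicates 1, 2 and 3) or erythroid markers (217.5, 163.9 and 199.5). PTH replicate 3 also had the largest FPKM sum and the fewest genes with an FPKM of at least 1. Monocyte, macrophage and osteoclast markers summed to 199.6 to 226.5 with vehicle and 327.8 to 377.8 with PTH. Mast cell and basophil markers summed to 50.5 to 77.4 and 5.67 to 16.5, with *Ms4a2* and *Fcer1a* at 0 in every library. Of the 6 tested, 1 was called higher and 1 lower, against 6.38% and 8.85% of all genes. Their median log2 fold change was -0.05, so the lower sum did not hold for the list as a whole. B and plasma cell markers summed to 4.90 to 10.1 and 9.36 to 14.3, erythroid markers to 123.7 to 168.2 and 163.9 to 217.5, and endothelial markers to 4.50 to 6.92 and 1.07 to 8.17. The part of these cells, and of the osteoblast markers, in the values of the members was not tested, and in bulk samples a change in the number of cells of a type cannot be told apart from a change of RNA per cell.

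Within AP-1, *Fos* made up 57.6% to 60.3% of the summed FPKM of the Fos family with vehicle and 53.2% to 57.9% with PTH, and *Fosb* 35.4% to 37.3% and 36.7% to 42.1%. *Junb* made up 42.2% to 43.1% of the Jun family with vehicle and 44.2% to 46.3% with PTH. The Fos family summed to 2.02 to 2.15 times the Jun family with vehicle and to 1.85 to 1.98 times with PTH. These shares are descriptions without a test.

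**Figure D3:**
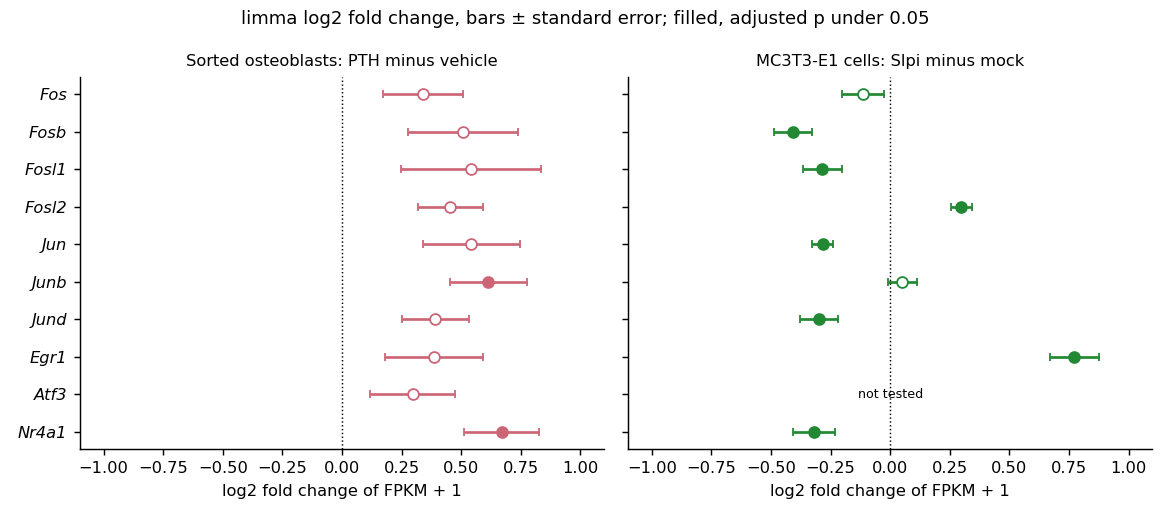
Log2 fold change on log2(FPKM + 1) with its standard error (bars) for the 10 genes, PTH minus vehicle in sorted osteoblasts and *Slpi* minus mock in MC3T3-E1 cells. Filled points have a limma adjusted *p* under 0.05. All 10 values are above 0 with PTH, and the *Slpi* values run from -0.41 for *Fosb* to 0.77 for *Egr1*.

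**Other genes of the pathway with PTH.** Each list of other pathway genes held some that passed the test, to be read against the 6.38% of all genes called higher and the 8.85% called lower. Of 27 further immediate early transcription factors tested, 2 rose, 1 fell and 24 did not pass, with a median log2 fold change of 0.22. *Egr3*, a relative of *Egr1*, rose from 28.6, 28.9 and 38.6 to 54.9, 51.1 and 98.6 FPKM (log2 fold change 1.01, limma adjusted *p* = 0.043), and the clock gene *Per1*, a CREB target, rose by a log2 fold change of 0.85. *Klf10* fell by 0.38 on the log2 scale, from a mean of 44.4 to 33.8 FPKM. Of 29 immediate early genes that are not transcription factors, 6 rose and none fell at an adjusted *p* under 0.05 in limma. The largest rises were those of *Spry2*, an inhibitor of receptor tyrosine kinase signaling (9.37 ± 0.625 to 19.4 ± 1.13 FPKM, SD, n = 3 each), *Rgs2*, which limits G protein signaling (26.4 ± 1.76 to 49.2 ± 4.86), the kinase *Plk2* (12.7 ± 1.30 to 23.8 ± 1.96) and the cAMP-induced kinase *Sik1* (22.6 ± 3.07 to 38.7 ± 10.1). Their log2 fold changes were 0.98, 0.87, 0.86 and 0.73 (limma adjusted *p* = 0.0133, 0.0138, 0.0142 and 0.047). In *Spry2* the PTH libraries lay at 20.7, 18.7 and 18.8 FPKM, and PTH replicate 3 did not stand out as it did for the AP-1 genes.

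MAP kinase phosphatases, which switch off the kinases upstream of AP-1, held genes that rose and genes that fell, 3 and 2 of 10 tested, against 6.38% and 8.85% of all genes. *Dusp5*, which acts on ERK in the nucleus, had 13.05, 8.601 and 15.55 FPKM with vehicle and 42.83, 32.02 and 42.99 with PTH (log2 fold change 1.61, limma adjusted *p* = 0.0139), and *Dusp10*, which acts on JNK and p38, rose by a log2 fold change of 1.14. *Dusp4* and *Dusp2*, the latter known from lymphocytes, fell by 1.05 and 0.97 on the log2 scale. Of 25 kinases and cofactors of serum response factor, 1 rose and 3 fell, shares near those of all genes. *Mapk7* (ERK5) rose from 3.48 ± 1.01 to 6.52 ± 1.1 FPKM, while *Prkacb*, a catalytic subunit of protein kinase A, fell from 33.2 ± 4.75 to 15.1 ± 2.07 FPKM and *Mapk14* (p38α) from 36.4 ± 4.53 to 21.1 ± 3.45 (SD, n = 3 each).

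Of 25 other basic leucine zipper partners, 2 rose and 3 fell, which is near the 6.38% and 8.85% of all genes. *Jdp2*, a repressor that pairs with Jun proteins, rose from 18.3, 13.97 and 22.5 to 30.3, 27.2 and 40.1 FPKM (log2 fold change 0.81, limma adjusted *p* = 0.0434). *Nfe2*, a factor of megakaryocytes and red cell precursors, was 0.538 FPKM on average with vehicle and 4.12, 3.42 and 1.22 FPKM with PTH, highest in the libraries with most platelet markers. *Batf3* and *Bach2*, which act in lymphoid and myeloid cells, fell by 1.14 and 0.87 on the log2 scale.

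Genes known to be regulated by AP-1 in bone cells include those of proteases, their inhibitors and matrix proteins. Of 26 tested, 9 rose and 2 fell, against 6.38% and 8.85% of all genes, with a median log2 fold change of 0.39. *Timp1*, an inhibitor of metalloproteinases, rose from 225.4 ± 28.8 to 548.6 ± 58.4 FPKM, *Plaur*, the urokinase receptor, from 70.8 ± 6.90 to 175.8 ± 25.2, and the growth factor *Fgf2* from 1.099 ± 0.951 to 6.31 ± 3.34 (SD, n = 3 each). *Hmox1*, heme oxygenase 1, fell from 251.5 ± 16.2 to 101.4 ± 15.5 FPKM (log2 fold change -1.31, limma adjusted *p* = 0.0131). Of 15 heat shock genes, which respond to other stresses, 2 rose and 1 fell, against the same shares of all genes. *Hspb1* and *Dnajb1* rose by log2 fold changes of 0.85 and 0.73, and *Hspd1*, a mitochondrial chaperonin, fell by 0.55 on the log2 scale.

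**Figure D4:**
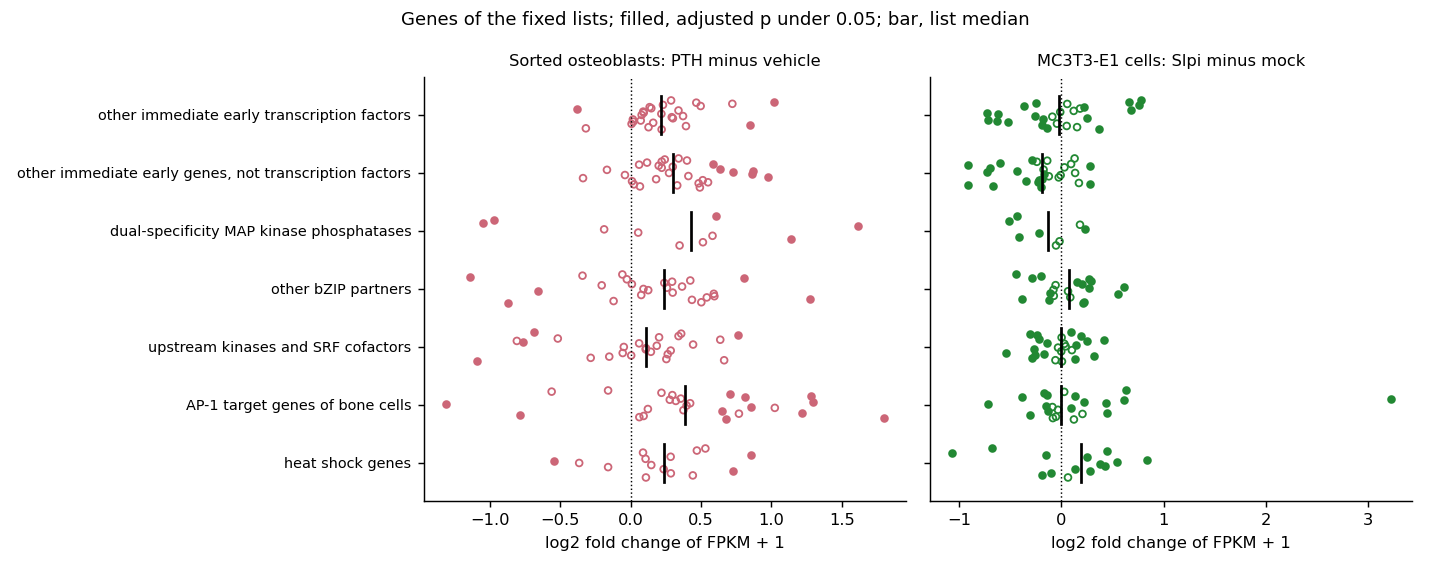
Log2 fold changes of the tested genes of 7 pathway lists, members left out, for PTH minus vehicle and *Slpi* minus mock. Each point is a gene, filled at a limma adjusted *p* under 0.05, and the bar is the list median, which runs from 0.11 (upstream kinases) to 0.43 (phosphatases) with PTH and from -0.19 to 0.19 with *Slpi*.

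**Likeness between libraries.** Across the 6 libraries of sorted osteoblasts the members went up and down together. Over their 45 pairs Pearson's *r* on the log2(FPKM + 1) scale ran from 0.806 to 0.993, with a median of 0.932, and without PTH replicate 3 between 0.123 and 0.985, with a median of 0.857. Among 7403 other genes with a mean FPKM of at least 5, *Cyr61* was the gene most like *Fos* and also the gene most like *Egr1* (*r* = 0.997 for both). *Cyr61* is itself an immediate early gene and encodes the matricellular protein CCN1. It stood at 508.6, 410.2 and 496.6 FPKM with vehicle and 581.2, 507.8 and 977.9 FPKM with PTH. Next after it came *Ttc28*, *Col13a1*, *Slit2* and *Fetub* for *Fos* (*r* = 0.996, 0.995, 0.994 and 0.993), and *Fetub*, *Ptprs*, *Ppp1r37* and *Arfgef2* for *Egr1* (0.995, 0.995, 0.994 and 0.993). Genes with an *r* of at least 0.9 made up 7.71% of those compared with *Fos* and 7.46% of those compared with *Egr1*. These 6 libraries share their group difference and the high PTH replicate 3, and without that library the *r* of *Cyr61* was 0.998 with *Fos* and 0.977 with *Egr1*.

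**Levels in MC3T3-E1 cells.** In cultured cells immediate early genes ranked far lower and in another order. With the empty vector *Junb* was highest at 35.8, 34.4 and 30.6 FPKM, followed by *Jun* (28.5 on average), *Egr1* (23.5), *Jund* (19.7), *Fosl2* (17.5), *Nr4a1* (7.99), *Fos* (6.34), *Fosl1* (2.73), *Fosb* (1.496) and *Atf3* (0.357). *Egr1* and *Jund* overlapped between libraries, and all other neighbours were apart. *Fos* held ranks 7820 to 8336 of 24346 genes, and *Junb* ranks 2295 to 2644. *Atf3* was at 0.258 to 0.498 FPKM with either vector and was not tested, since no library reached an FPKM of 1.

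*Fosl2* made up 61.8% to 63.4% of the summed FPKM of the Fos family in mock cells and 3.99% to 4.66% in vehicle-treated sorted osteoblasts, whereas *Fos* made up 21.2% to 24.7% and *Fosb* 5.03% to 5.52% in mock cells. Within the Jun family *Junb* made up 39.8% to 42.5% in mock cells and 42.2% to 43.1% in vehicle-treated osteoblasts, and *Jun* 33.1% to 36.6% and 31.1% to 31.5%. The Fos family summed to between 0.326 and 0.355 times the Jun family in mock cells. Other immediate early genes that are not transcription factors summed to 734.5 to 747.9 FPKM in mock cells and 4028 to 4795 in vehicle-treated osteoblasts, heat shock genes to 2726 to 2801 and 4354 to 4971, and upstream kinases and cofactors to 642.8 to 652.1 and 426.8 to 430.1. These values were scaled separately for each experiment and were not tested against each other. Sorted osteoblasts were released from bone by 3 incubations in collagenase at 37 °C and by EDTA and then sorted, MC3T3-E1 cells were lysed while subconfluent, and the library kits differed per the labels, so cell source, handling and kit cannot be told apart.

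**Figure D5:**
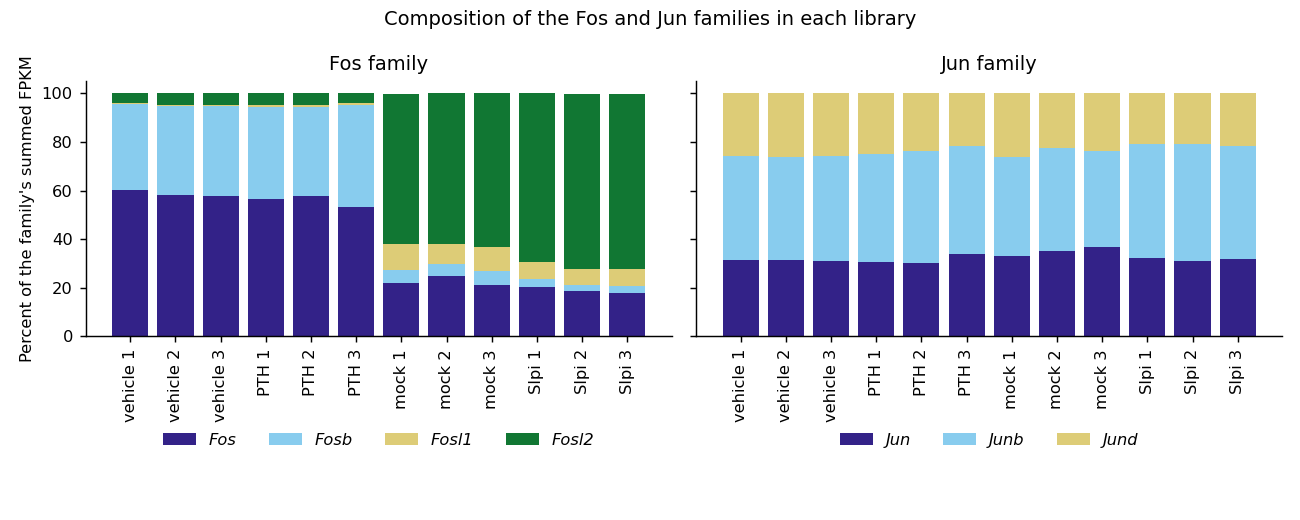
Percent of the summed FPKM of the Fos family (left) and of the Jun family (right) held by each member, 1 stacked bar per library. *Fosl2* takes 3.99% to 4.95% of the Fos family in the 6 libraries of sorted osteoblasts and 61.8% to 72.3% in those of MC3T3-E1 cells.

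***Slpi*-overexpressing against mock cells.** *Slpi* itself rose from 377.2, 395.6 and 386.0 FPKM in mock to 2105, 1973 and 1848 FPKM in *Slpi*-overexpressing cells (log2 fold change 2.35, limma adjusted *p* = 3.92e-08), as the labels say. The immediate early genes split. *Egr1* and *Fosl2* rose, *Fosb*, *Nr4a1*, *Jund*, *Fosl1* and *Jun* fell, and *Fos* and *Junb* did not pass, so that 2 of the 9 members tested were called higher and 5 lower. Of all 11466 genes tested, 31.9% were called higher and 28.9% lower at the same threshold, so a call is frequent in this comparison. Every *Slpi* library lay above every mock library for 2 of 9 members, against 34.9% of all genes, and below for 5 of 9, against 32.2%. At an unadjusted limma *p* under 0.05 the counts were again 2 higher and 5 lower, against 34% and 31% of all genes. No member reached a 2-fold change, and 0.75% of all genes did so upwards and 0.384% downwards at an unadjusted limma *p* under 0.05. The median log2 fold change was -0.28 over the members and 0.004 over all genes.

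*Egr1* had 22.8, 27.5 and 20.2 FPKM in mock and 41.9, 43.1 and 36.7 FPKM in *Slpi*-overexpressing cells. This was the largest difference of the members (0.77 ± 0.104 on the log2 scale, adjusted *p* = 3.21e-04 by limma), and leaving out single libraries gave 0.67 to 0.89. *Egr1* thereby moved from the third place among the members to the first, above *Junb*. *Fosl2* had 17.7, 17.5 and 17.3 FPKM in mock and 21.9, 22.9 and 20.4 FPKM in *Slpi*-overexpressing cells (log2 fold change 0.30 ± 0.0455, adjusted *p* = 6.27e-04 by limma).

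*Fosb* fell the most, from 1.56, 1.42 and 1.51 to 1.00, 0.749 and 0.893 FPKM (log2 fold change -0.41 ± 0.0801, adjusted *p* = 0.0024 by limma). This gene is near the limit of 1 FPKM, where log2(FPKM + 1) understates a change, and its ratio of means was 0.589. *Jun* fell from 29.0, 28.4 and 28.2 to 24.8, 22.5 and 22.6 FPKM (log2 fold change -0.28 ± 0.0442, adjusted *p* = 7.19e-04 by limma). *Jund* fell from 22.7, 18.1 and 18.2 to 16.3, 15.4 and 15.5 FPKM, and *Nr4a1* from 8.51, 8.07 and 7.37 to 7.23, 5.74 and 5.71 FPKM, with log2 fold changes of -0.30 and -0.32 (adjusted *p* = 0.0117 and 0.0128 by limma). Mock replicate 1 was the highest mock library of *Jund*, and without it the log2 fold change was -0.20 (adjusted *p* = 0.00872 by limma). *Fosl1* fell from 3.09, 2.39 and 2.71 to 2.18, 2.06 and 1.92 FPKM (log2 fold change -0.29, limma adjusted *p* = 0.016). The call of *Fosl1* was lost without mock replicate 1 and without *Slpi* replicate 3 (adjusted *p* = 0.0586 and 0.0518 by limma). It was also lost with quantile normalization (adjusted *p* = 0.0674 by limma) and without moderation (adjusted *p* = 0.0547 by an unmoderated linear model). In these 5 genes no *Slpi* library reached the lowest mock library.

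*Fos* stood at 6.26, 6.97 and 5.81 FPKM in mock and 6.43, 5.95 and 5.01 FPKM in *Slpi*-overexpressing cells, with overlapping groups (log2 fold change -0.11 ± 0.0886, adjusted *p* = 0.289 by limma), and with single libraries left out the difference ran from -0.18 to -0.03. *Junb* stood at 35.8, 34.4 and 30.6 FPKM and at 36.3, 35.2 and 32.9 FPKM (log2 fold change 0.05 ± 0.0613, adjusted *p* = 0.496 by limma). Within the Fos family the share of *Fosl2* was 61.8% to 63.4% in mock and 69.5% to 72.3% in *Slpi*-overexpressing cells, while that of *Fosb* was 5.03% to 5.52% and 2.37% to 3.18%. The sum of the Fos family was 0.326 to 0.355 times that of the Jun family in mock and 0.398 to 0.433 times in *Slpi*-overexpressing cells.

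Among the other immediate early transcription factors tested, 7 of 26 rose and 11 fell, against 31.9% and 28.9% of all genes. *Egr2* rose by a log2 fold change of 0.78 (7.99 ± 0.858 to 14.5 ± 2.14 FPKM, SD, n = 3 each), close in size to *Egr1*, and *Klf4*, a pluripotency and differentiation factor, by 0.76. *Cebpb* fell by 0.73 on the log2 scale, with mock replicate 1 at 58.8 FPKM standing above the other mock libraries at 33.13 and 34.95, and the BMP target *Id1* fell by 0.72. Of 27 immediate early genes that are not transcription factors, 2 rose and 14 fell, with a median log2 fold change of -0.19. *Gadd45b*, a stress gene, fell from 40.5 ± 0.964 to 21.0 ± 0.802 FPKM, the small GTPase *Rhob* from 55.5 ± 0.945 to 29.0 ± 1.44, *Sik1* from 7.50 ± 0.624 to 4.15 ± 0.462 and the cytokine inhibitor *Socs3* from 65.9 ± 1.87 to 40.3 ± 4.51 (SD, n = 3 each).

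Of 8 MAP kinase phosphatases tested, *Dusp7* and no other rose and 4 fell, against 31.9% and 28.9% of all genes. *Dusp5*, *Dusp1* and *Dusp10* fell by 0.51, 0.43 and 0.41 on the log2 scale (limma adjusted *p* = 0.00213, 3.62e-04 and 8.2e-04). Of 20 other basic leucine zipper partners 9 rose and 6 fell, and of 24 kinases and cofactors of serum response factor 7 rose and 9 fell, against the same shares of all genes. *Atf5* and *Creb3l1*, which encodes the collagen regulator OASIS, rose by log2 fold changes of 0.61 and 0.56, and *Jdp2* and *Nfe2* fell by 0.44 and 0.38 on the log2 scale. Among the kinases and cofactors, *Mapk12* and *Elk4* rose by log2 fold changes of 0.42 and 0.32, and *Braf* and *Mapk3* fell by 0.54 and 0.30 on the log2 scale.

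Of 22 AP-1 target genes of bone cells, 8 rose and 7 fell, against 31.9% and 28.9% of all genes. *Ibsp*, bone sialoprotein, rose from 39.9, 37.9 and 42.5 to 371.6, 408.7 and 364.0 FPKM (log2 fold change 3.22, limma adjusted *p* = 3.21e-08). *Mmp13*, the collagenase whose promoter holds a well-known AP-1 site, rose from 191.0 ± 4.26 to 297.0 ± 19.9 FPKM (SD, n = 3 each), and *Bglap* from 1.49 ± 0.382 to 2.77 ± 0.0929 (SD, n = 3 each). Of 14 heat shock genes, 8 rose and 5 fell. The mitochondrial chaperonins *Hspd1* and *Hspe1* rose by log2 fold changes of 0.84 and 0.55, and *Hspb1* and *Hspa1b* fell by 1.07 and 0.68 on the log2 scale.

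Across the 6 MC3T3-E1 libraries the members did not move together, and Pearson's *r* ranged from -0.95 to 0.982 over their 45 pairs, with a median of 0.089. The genes most like *Fos* were *Guk1*, *Bcas3*, *Gbf1*, *Znhit1* and *Mt1* (*r* between 0.96 and 0.982), and those most like *Egr1* were *Mapk1ip1l*, *C1qtnf1*, *Fgfr1op2*, *Cercam* and *2410004B18Rik* (*r* between 0.995 and 0.996). An *r* of at least 0.9 was reached by 0.413% of the 8725 genes compared with *Fos* and by 21% of those compared with *Egr1*, which shares its group difference with many genes. Of 11 osteoblast markers tested 7 were called higher and 1 lower with *Slpi*, against 31.9% and 28.9% of all genes. *Sp7* stood at 29.3 to 30.9 FPKM in mock and 84.3 to 88.3 in *Slpi*-overexpressing cells. The marker called lower was *Spp1*, with means of 749.8 and 573.4 FPKM (limma adjusted *p* = 2.21e-05). Markers of other cells summed to at most 2.10 FPKM for neutrophils, 0.186 for T and NK cells, 1.59 for muscle, 0.571 for erythroid cells, 2.51 for mast cells and basophils, 8.72 for megakaryocytes, 16.7 for B and plasma cells and 18.8 for endothelium, with *Cd3e* and *S100a9* at 0 in every library. The list of monocytes, macrophages and osteoclasts summed to 81.4 to 88.1 FPKM, with *Adgre1* and *Fcgr1* at 0 in every library. Few genes carried the larger sums. Under 1 FPKM in every library were 9 of 10 B and plasma cell markers and 7 of 8 endothelial markers. The same held for 8 of 10 megakaryocyte markers and 6 of 10 markers of monocytes, macrophages and osteoclasts.

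Side by side, the members gave different values in both experiments. *Egr1* and *Fosl2*, which rose in *Slpi*-overexpressing cells, had log2 fold changes of the same direction with PTH, 0.39 and 0.46. They did not pass there (limma adjusted *p* = 0.236 and 0.0649). *Nr4a1*, which rose with PTH, fell with *Slpi*. *Junb*, the other member called with PTH, had a log2 fold change of 0.05 with *Slpi*. *Slpi* itself stood at 1.64, 2.38 and 2.62 FPKM in vehicle-treated and at 37.5, 19.8 and 27.2 FPKM in PTH-treated osteoblasts, and its highest PTH library was replicate 1 and not replicate 3, where the immediate early genes were highest. Whether an effect differed between the experiments was not tested, since cells, treatments and scaling differ.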

How the data were processed

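FPKM of 12 libraries were analysed. Per the labels and the methods, the authors mapped 75-base single-end reads to mm10 with TopHat2 2.0.13, Bowtie2 2.2.3 and SAMtools 0.1.19, and deposited FPKM from Cuffnorm (Cufflinks 2.2.1). The annotation and scaling option are not given in the sources used here. The methods name SMART-Seq v4 for both experiments, the labels a TruSeq stranded mRNA kit for MC3T3-E1 cells. Read numbers are unknown, and only relative depth was derived from steps in low FPKM.

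Each experiment was fitted on its own, 3 libraries against 3, with limma 3.58.1 (trend) in R 4.3.3 on log2(FPKM + 1), over genes that reached an FPKM of 1 in any of the 6 libraries. Genes were called at a Benjamini-Hochberg adjusted *p* under 0.05. Of the 10 members, all passed this filter in sorted osteoblasts and 9 did in the cell line. The model was tested on simulated data. Permutation tests were exact and two-sided (scipy 1.17.1). Positions come from GENCODE M21, promoters from RefSeq (GRCm38.p6), which held 8 of the 10 genes.

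The members and lists were chosen with earlier results of these data known. Named besides the members are, of each list, up to 4 called genes with the largest absolute log2 fold change, the 5 genes most like *Fos* and *Egr1* by Pearson's *r*, and *Slpi*. A few genes that this rule names are counted with their lists but not reported here by name. Between libraries of the same replicate number, correlations of deviations were 0.029, 0.073 and 0.102 for sorted osteoblasts and 0.039, -0.052 and 0 for MC3T3-E1 cells. Between libraries of different numbers they ran from -0.116 to 0.069 and from -0.099 to 0.105. These values do not settle whether the numbers pair libraries, and the main fits used no block.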

Additional observations from a re-analysis of the deposited data

How the results depend on the processing

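The direction of all 10 members with PTH held in every alternative run, that is a pseudocount of 0.1, no filter, a mean FPKM of at least 1, median-ratio scaling, quantile normalization, no trend, an unmoderated model, a replicate block and leaving out each library. Calls were less stable. By limma, 0 of 10 members passed with no filter, quantile normalization or no trend, where 5, 2 and 5 had an unadjusted *p* under 0.05, and 0 passed in an unmoderated linear model, where 3 had one. Between 0 and 3 passed with 1 library left out, 0 without vehicle replicate 1, vehicle replicate 2 or PTH replicate 1. *Nr4a1* was called in 7 and *Junb* in 6 of 14 alternatives, with adjusted *p* between 0.0129 and 0.131 and between 0.0245 and 0.205. Over all genes 1981 were called, against 1310 with no filter, 1 in the unmoderated model and 0 to 1569 with 1 library left out. Of the other pathway genes 37 were called, against 24 with no filter, 0 unmoderated and 0 to 37 with 1 library left out. The replicate block gave 3 members with PTH (*Fosl2* added, limma adjusted *p* = 0.0294), 57 other pathway genes and 2262 of all genes. With the block 9 of 10 members had an unadjusted limma *p* under 0.05, and without PTH replicate 2 all 10 had one. Over all genes 4647 of 13004 and 4420 of 12768 had one in these fits, in either direction. Whether replicates share more than a number is not known. In MC3T3-E1 cells the block left 7 members called, quantile normalization 6, the unmoderated model 4 instead of 7, and leaving out 1 library 6 or 7. *Junb*, at a log2 fold change of 0.05 and not called, ran from -0.012 without mock replicate 3 to 0.096 without mock replicate 1. Depth in reads is unknown, which limits *Fosl1*, *Fosb* and *Atf3* at low FPKM.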
